A study of Mus musculus with 6 samples.

Results

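The shortest contacts that capture Hi-C measured over the mouse X-inactivation centre were ligations between 2 ends inside a single 5 kb bin and ligations between a bin and its neighbour. They were taken by position, as the 210 values on the diagonal of each map and the values beside it, which gave 419 of the 22155 bin pairs of a map. The cells, female embryonic stem cells from a cross of CAST/EiJ x 129S1 mice, were undifferentiated (day 0), differentiating for 4 days, or differentiating for 7 days, and digestion was with MboI. Cells at day 0 and day 4 were untransfected, whereas day 7 cells had received a scramble locked nucleic acid (LNA; control) or a Jpx LNA (depleted) and were collected 8 hours later, so that day and transfection cannot be told apart in comparisons with day 7. Jpx RNA itself was not measured in these maps. Undifferentiated cells had been grown on irradiated feeder fibroblasts of mouse embryos, which were removed before differentiation, and a part of feeder DNA in the day 0 values was not tested.

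The 6 libraries gave 7 maps of the same 210 bins, X 100215001 to 101265000 on mm9. Day 0, day 4 and day 7 control each had a map of all reads from 1 library. At day 7 a further 4 maps, named cas or mus and taken here as the parental alleles, held allelic reads of control or depleted cells, and each combined 2 libraries. Control library 1 therefore entered the day 7 map of all reads and both control allelic maps, and comparisons that use the same map share its error. The allele on the inactive X is one detail not given in the sources used here. No map had a replicate, and each day's map of all reads came from 1 library, so day and library cannot be told apart. All intervals are 95% intervals for counting error alone, PCR copies are not independent contacts, and a value is said to have risen, fallen or differed only where such an interval excludes 0. The maps sum over all cells, so fewer cells with a contact and fewer contacts per cell cannot be told apart.

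Xist is the noncoding RNA gene whose transcript coats the X chromosome chosen for silencing in female cells. Tsix is transcribed across Xist in the opposite direction and represses it, while Jpx, Ftx and the ubiquitin ligase encoded by Rlim promote its expression. In a proximity ligation experiment the contact frequency falls steeply with distance along the chromosome, and the shortest separations hold local folding of the fibre together with ligations between neighbouring fragments. Their measured frequency also depends on where capture probes lie, because only ligation products that touch a probe are recovered.

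Probes were 120 bp long and lay beside MboI sites, at a median of 1 bp from the nearest GATC over 1067 probes, 98% of them within 100 bp, and no probe held a GATC inside it. Of these, 1018 lay in the mapped bins, with a median of 4 and a maximum of 15 per bin, and 22 bins had none. Probes are printed for the bins on which the results turn: 2 bins over the part of Tsix outside Xist, the bins of the Xist and Jpx promoters, the bins with the 2 highest day 0 values, and a bin with probes but no contact inside it. Each is read from the plus strand of mm9 with the MboI site that adjoins it, and capitals mark that site. The positions are chrX:100642897-100643020 and chrX:100631109-100631232 for Tsix, chrX:100676246-100676369 for Xist, chrX:100688438-100688561 for Jpx, chrX:100460523-100460646 for 4930519F16Rik, chrX:100606526-100606649 for Tsx and chrX:100267199-100267322 for the bin without contacts. These bins were chosen for display after their values were seen.
Tsix bin 100640001: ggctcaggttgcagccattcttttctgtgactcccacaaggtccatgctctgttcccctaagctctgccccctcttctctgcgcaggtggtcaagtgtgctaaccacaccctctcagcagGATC
Tsix bin 100630001: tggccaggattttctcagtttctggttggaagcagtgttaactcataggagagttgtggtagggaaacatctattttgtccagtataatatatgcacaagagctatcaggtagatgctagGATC
Xist promoter bin: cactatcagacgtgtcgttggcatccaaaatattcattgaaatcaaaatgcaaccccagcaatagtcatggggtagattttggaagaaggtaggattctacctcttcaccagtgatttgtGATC
Jpx promoter bin: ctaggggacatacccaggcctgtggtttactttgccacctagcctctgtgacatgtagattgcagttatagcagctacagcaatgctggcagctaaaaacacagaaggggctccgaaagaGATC
4930519F16Rik bin 100460001: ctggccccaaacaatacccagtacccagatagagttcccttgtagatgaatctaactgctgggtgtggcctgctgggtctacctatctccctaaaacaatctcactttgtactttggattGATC
Tsx promoter bin: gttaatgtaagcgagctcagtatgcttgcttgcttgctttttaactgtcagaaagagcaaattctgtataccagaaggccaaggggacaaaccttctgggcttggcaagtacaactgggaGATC
Bin 100265001, no contact inside: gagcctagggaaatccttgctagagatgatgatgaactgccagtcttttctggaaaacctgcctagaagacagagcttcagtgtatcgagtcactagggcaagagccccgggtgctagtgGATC

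Same-bin and next-bin contacts made up a smaller share of the map after 4 days of differentiation, and part of that loss was regained in the day 7 control cells. Same-bin contacts held 4.82% (4.67 to 4.96) of the signal at day 0, 3% (2.88 to 3.13) at day 4 and 3.61% (3.48 to 3.74) at day 7. The 3 intervals do not overlap, with day 0 highest and day 4 lowest. The share fell by 0.68 (0.61 to 0.76) on the log2 scale from day 0 to day 4, a 1.6-fold reduction. From day 4 to day 7 it rose by 0.26 (0.18 to 0.34) and remained 0.42 (0.35 to 0.49) below day 0.

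Next-bin contacts followed the same order of days. They held 11.4% (11.2 to 11.7) of the signal at day 0, 7.92% (7.72 to 8.12) at day 4 and 9.97% (9.75 to 10.2) at day 7. Against day 0, day 4 had a log2 ratio of -0.53 (-0.58 to -0.48) and day 7 one of -0.20 (-0.24 to -0.16), and day 7 lay above day 4 by 0.33 (0.28 to 0.38). Both classes together took up 16.3% of the day 0 signal, 10.9% of that of day 4 and 13.6% of that of day 7. These shares rest on 5402, 3164 and 3957 same-bin contacts and 11357, 7536 and 9541.5 next-bin contacts recovered from the deposited values, a few of which did not come out whole.

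**Figure D1:**
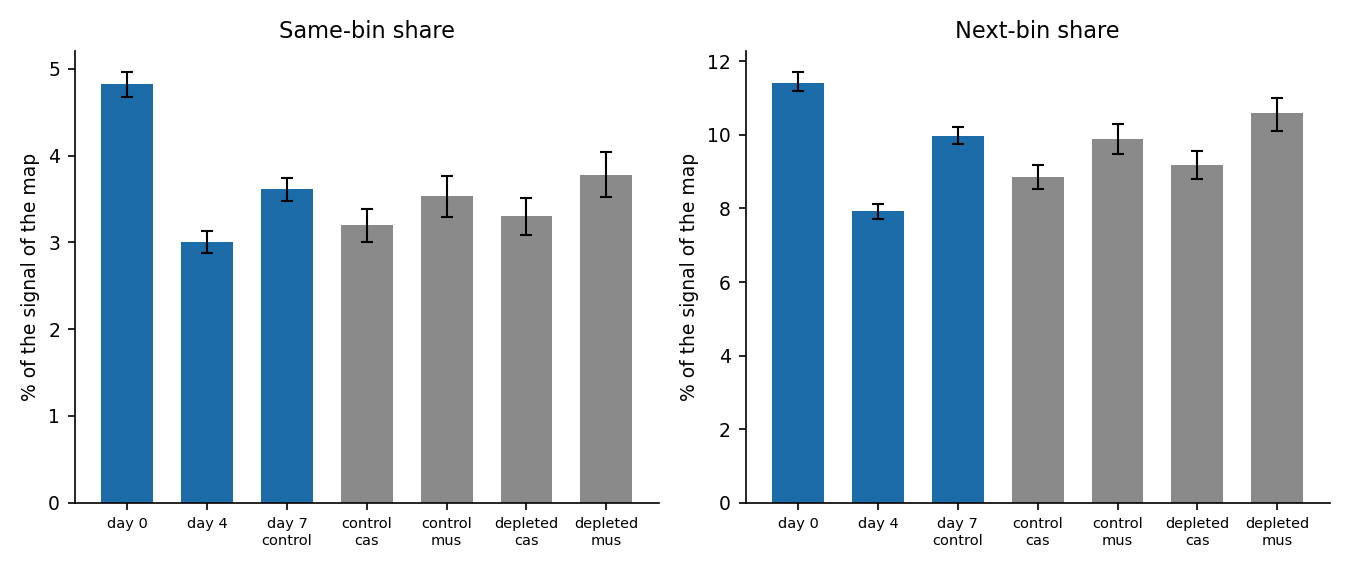
Same-bin (left) and next-bin (right) share of the signal of each map, in %, with bars from 0 and 95% counting intervals; blue, maps of all reads, grey, allelic maps of day 7. In both panels day 0 is highest (4.82% and 11.4%) and day 4 lowest (3% and 7.92%), and in each condition mus lies above cas.

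The loss at day 4 was graded by separation, and shares add to 100%, so lower short-range shares go with higher shares elsewhere. For day 4 over day 0 the log2 ratio was -0.20 (-0.24 to -0.17) at 10 to 20 kb, 0.01 (-0.03 to 0.05) at 25 to 50 kb and 0.13 (0.09 to 0.17) at 55 to 100 kb. At 500 kb or more the share rose from 4.48% to 7.04%, a log2 ratio of 0.65 (0.58 to 0.72). The sign thus changed between 20 and 55 kb. Day 7 over day 0 had the same order of signs, from -0.42 in the same bin to 0.55 (0.48 to 0.62) at 500 kb or more, but these comparisons share the day 0 map. Against signal at 100 kb or less alone, the day 4 ratio was -0.53 for the same bin and -0.38 for the next bin.

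**Figure D2:**
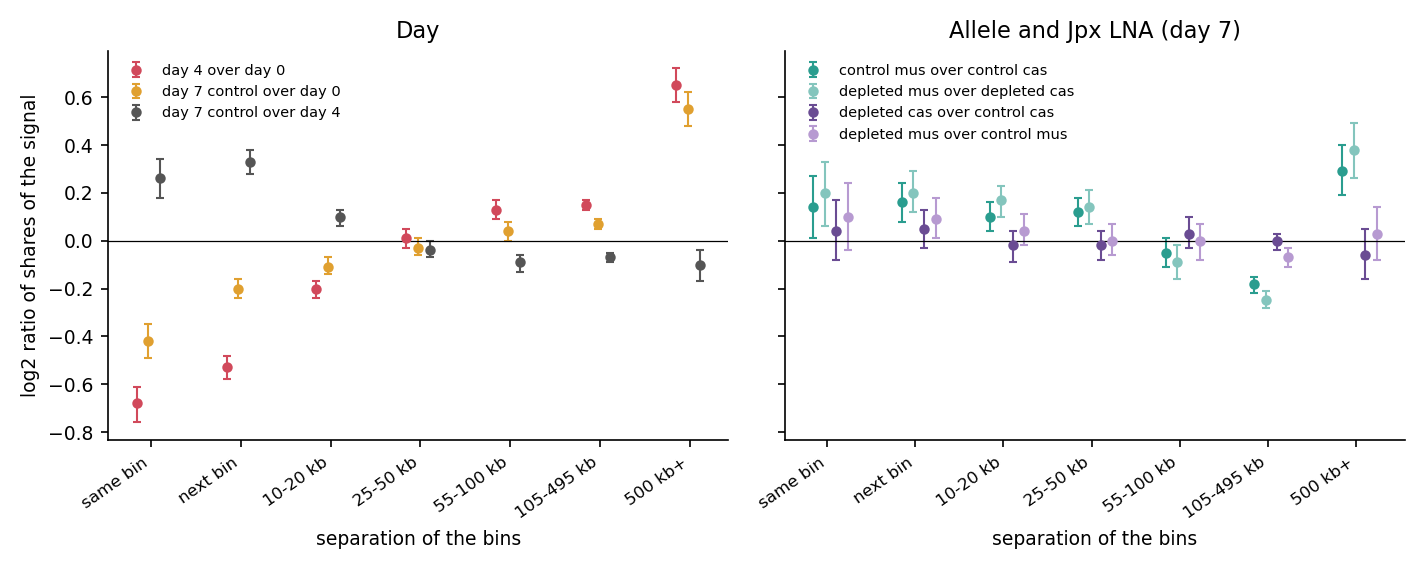
Log2 ratio of the share of signal by separation class (same bin, next bin, then ranges in kb), with 95% counting intervals; left, days, right, alleles and LNA at day 7. Day 4 over day 0 runs from -0.68 in the same bin to 0.65 at 500 kb or more, while the depleted over control ratios lie between -0.07 and 0.10, and their intervals exclude 0 on mus in the next bin (0.09) and at 105 to 495 kb (-0.07).

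Same-bin signal was lower than next-bin signal in every map. At day 0 the mean over bins was 2.29 per 10000 of the map's signal inside a bin, 5.47 between neighbours and 3.62 at 10 kb. Only ends less than 5 kb apart can fall inside a bin, and Hi-C pipelines often remove self-ligated fragments and undigested DNA, which lie there. Which filter these maps went through was not given in the sources used here. The mean same-bin value was 0.419 (0.404 to 0.435) of the mean next-bin value at day 0. This ratio was lower at day 4, at 0.378 (0.359 to 0.396), and at day 7, at 0.36 (0.345 to 0.376), and the 4 allelic maps had 0.355 to 0.36. The intervals of day 4 and day 7 overlap each other and not that of day 0.

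Along the region, same-bin values varied several-fold within each map and followed the number of probes. Over the 210 bins the median was 2.21 per 10000 at day 0, with a range of 0 to 6.73, 1.33 (0 to 3.85) at day 4 and 1.71 (0 to 4.65) at day 7. Across bins, Spearman's rho with probes per bin was 0.71 at day 0, 0.72 at day 4 and 0.75 at day 7, against 0.08 to 0.11 with the number of MboI sites. Neighbouring bins share fragments and domains, so these are descriptions of 210 bins and not of independent points. The day 0 median went stepwise from 0 in the 22 bins without a probe to 1.05 with 1 to 2 probes, 2.19 with 3 to 4, 2.79 with 5 to 7 and 3.48 with 8 to 15. Next-bin values had rho 0.64, 0.72 and 0.68 with the probes of their 2 bins.

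The pattern along the region was similar between days. Pearson's r over the 210 same-bin values was 0.80 between day 0 and day 4, 0.83 between day 0 and day 7 and 0.81 between day 4 and day 7. For the next-bin values it was 0.84, 0.82 and 0.86. All maps share the probe set, whose part in these values was not tested. Within a map, a bin's own value and the mean of its next-bin values had r = 0.73 at day 0, 0.68 at day 4 and 0.74 at day 7.

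**Figure D3:**
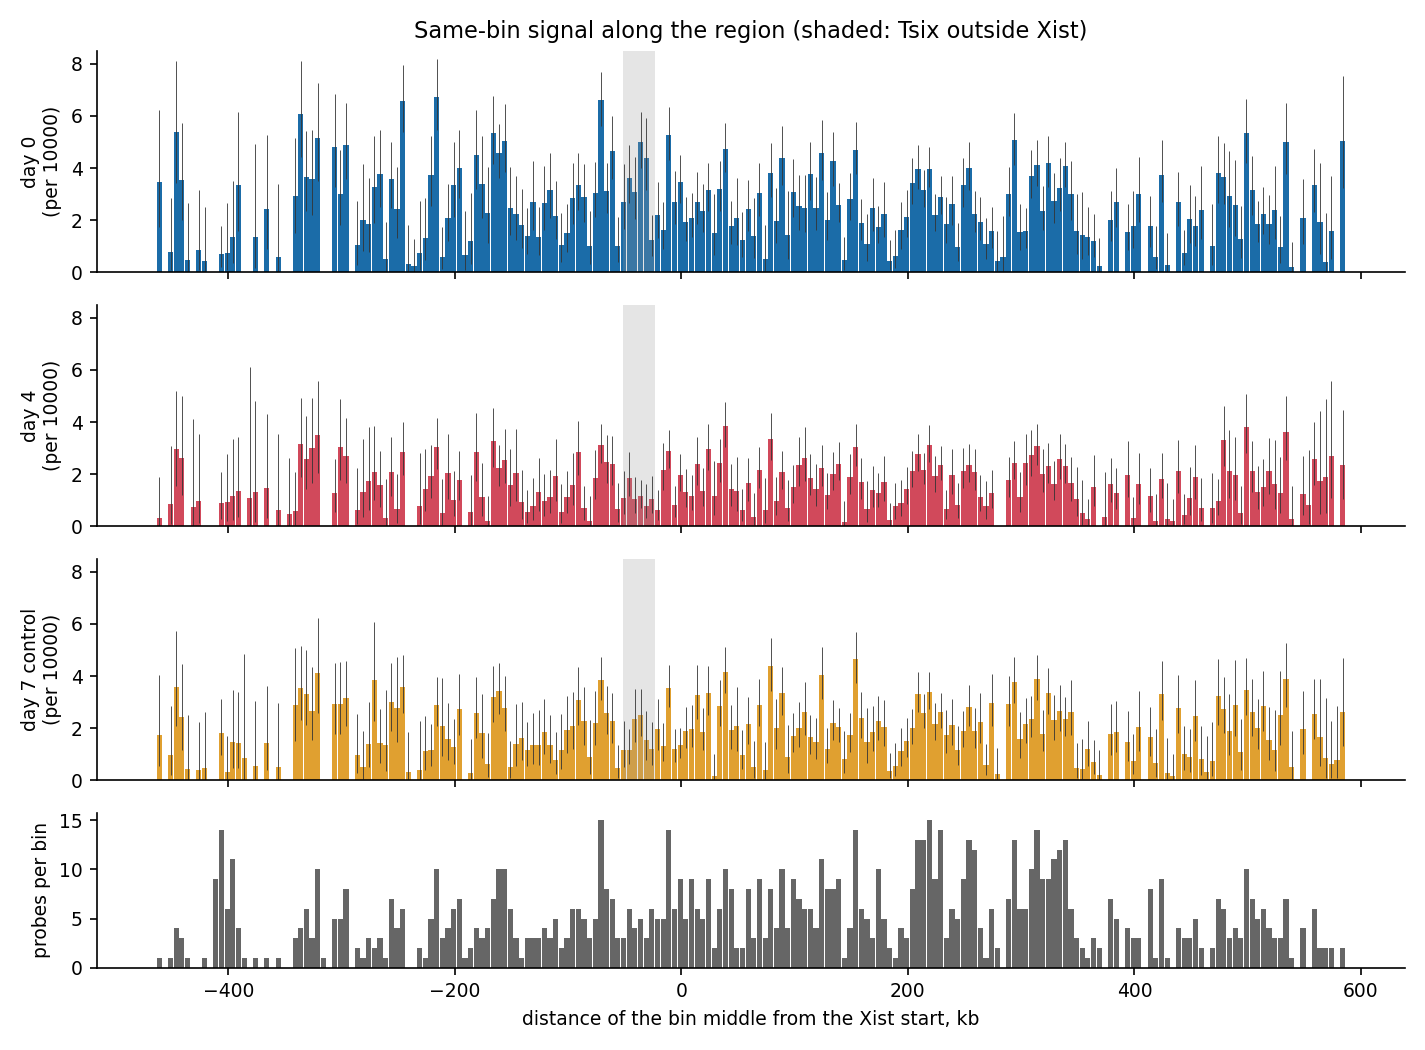
Same-bin signal per 10000 of the map at day 0, day 4 and day 7 control for each 5 kb bin, against the distance of the bin's middle from the Xist start in kb. Bins above 0 carry exact 95% Poisson intervals and bins at 0 carry none. The bottom panel gives probes per bin. Day 0 reaches 6.73 and day 4 only 3.85, and the 6 shaded bins, over Tsix outside Xist, have 1.24 to 4.99 at day 0 and 0.787 to 1.87 at day 4.

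The bins with most signal inside them differed between days. At day 0 they were X 100460001 to 100465000 in 4930519F16Rik (6.73 per 10000, 5.47 to 8.18, 100 contacts), 100605001 to 100610000 at the promoter of Tsx (6.6, 5.63 to 7.7, 163 contacts) and 100430001 to 100435000, also in 4930519F16Rik (6.58, 5.39 to 7.97). All 3 lie on the Tsix side of Xist. At day 4 the highest were 100715001 to 100720000 between Jpx and Ftx (3.85), 101175001 to 101180000 at the Rlim promoter (3.83) and 101210001 to 101215000 between genes (3.61). At day 7 they were 100830001 to 100835000 between genes (4.65), 100755001 to 100760000 at the 3' end of Ftx (4.37) and again 100715001 to 100720000 (4.16). All of these later bins lie on the Xist side.

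The lowest values were all 0 and tied. No contact was recorded inside 21 bins at day 0, 23 at day 4 and 20 at day 7, most of them without a probe (18, 15 and 17 of the 22 such bins). The bin at 100265001 to 100270000 stood out among bins with probes, with 9 probes, 8 MboI sites and 0 same-bin contacts in all 7 maps. It was also nearly empty elsewhere, with 45, 41 and 58 contacts in all at day 0, day 4 and day 7, so its 0 allows little statement about local contacts. It overlaps no annotated gene.

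Bin by bin, most of the diagonal went down together at day 4. A bin was called where its value differed by 1.5-fold or more and both maps had at least 10 contacts in it. Of 105 bins that could be compared, 48 (45.7%) were called lower and 1 (0.952%) higher at day 4 than at day 0, and the median log2 ratio was -0.56, with 97 of the 105 below 0. Among next-bin pairs, 71 of 165 (43%) were called lower and 1 (0.606%) higher, with a median of -0.52. For comparison, bin pairs at 10 kb or more were called about equally in both directions, 152 of 1578 (9.63%) lower and 165 (10.5%) higher, with a median of -0.01. The minimum of 10 contacts was met by 140 bins at day 0 and 105 at day 4, so bins that lost most of their contacts are left out of these counts.

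At day 7 the shift was smaller. Against day 0, 33 of 122 same-bin values (27%) were called lower and 1 (0.82%) higher, with a median of -0.32, and 26 of 173 next-bin values (15%) lower and 2 (1.16%) higher. Among pairs at 10 kb or more, 10.3% were called lower and 10.7% higher. Against day 4, 18 of 100 same-bin values (18%) were called higher and 3 (3%) lower, and 28 of 165 next-bin values (17%) higher and 0 (0%) lower. Here pairs at 10 kb or more had 7.99% higher and 9% lower.

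Over most named genes the same-bin signal fell with the whole diagonal, and Tsix fell further. The 10 genes were the noncoding RNA genes Xist, Tsix, Jpx and Ftx and the protein-coding genes Nap1l2, Cdx4, Chic1, Tsx, Zcchc13 and Rlim, each with all bins its annotation touches. In 8 of the 10 the mean same-bin value was lower at day 4 than at day 0, and in 1 of them, Tsix, it was also lower relative to all bins. At day 7 it was lower than at day 0 in 7 of the 10. Relative to all bins, 3 of these were lower at day 7 (Tsix, Cdx4 and Tsx) and 1, Jpx, was higher.

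Tsix (X 100626856 to 100680296, plus strand) covers 12 bins, 5 of which are also the bins of Xist. Its mean same-bin value was 3.11 per 10000 at day 0, 1.40 at day 4 and 1.77 at day 7, from 492, 229 and 279 contacts. Day 4 over day 0 was -1.15 (-1.39 to -0.91), or -0.47 (-0.70 to -0.23) relative to all bins, whose own change is taken as fixed. Day 7 over day 0 was -0.81, or -0.39 relative to all bins. When each map is scaled to its median same-bin value instead, Tsix at day 4 is still lower, by -0.41 (-0.65 to -0.17).

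The 5' part of Tsix, outside Xist, was lower still at day 4. It is a set of 6 bins from 100625001 to 100655000 that was chosen after the values were seen. Its mean same-bin value was 3.34 at day 0, 1.17 at day 4 and 1.65 at day 7, from 236, 77 and 99 contacts. Day 4 over day 0 was -1.52 (-1.90 to -1.13), a 2.86-fold reduction, and scaled to the median same-bin value it was -0.78 (-1.17 to -0.40). Without all 12 Tsix bins, the other bins gave -0.65 (-0.73 to -0.57), against -0.68 for all bins.

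The steepest single bin was 100640001 to 100645000. It had 4.99 per 10000 at day 0 (4 to 6.14, 88 contacts), 1.15 at day 4 (0.705 to 1.78, 20 contacts) and 2.51 at day 7 (1.72 to 3.52, 33 contacts), and the day 0 interval lies above both others. Day 4 over day 0 was -2.11 (-2.89 to -1.40), a 4.32-fold reduction and the lowest of the 105 bins compared. Its contacts with bins 10 kb or more away did not follow, with 1511 at day 0, 1641 at day 4 and 1211 at day 7, or 1.24%, 1.35% and 1.12% of the signal.

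Most neighbouring bins of Tsix also had less signal at day 4 than at day 0. The bin at 100625001 had 2.72, 1.09 and 1.16 per 10000 at day 0, day 4 and day 7, from 21, 8 and 8 contacts. These are too few for a ratio, and its day 0 interval (1.68 to 4.16) overlaps that of day 4 (0.469 to 2.14). The bin at 100635001 had 3.07, 1.06 and 2.35, with day 4 over day 0 at -1.54 (-2.69 to -0.50). The bin at 100645001 had 4.4, 0.787 and 1.53, from 43, 7 and 12 contacts, and was therefore left out of the day 4 calls, while its day 7 over day 0 ratio was -1.52 (-2.58 to -0.58). At 100630001 the values were 3.64, 1.87 and 1.15, lowest at day 7, with day 7 over day 0 at -1.67 (-2.68 to -0.75). The bin at 100650001, next to the end of Xist, had 1.24, 1.06 and 1.21, from 11, 10 and 10 contacts. Its day 4 over day 0 ratio was -0.23 (-1.62 to 1.15), an interval too wide to show whether this bin followed. After scaling each map to its median same-bin value, 2 bins were called lower at day 4 and 15 higher of 105. That median is taken over all 210 bins and removes a shift of -0.73, whereas the 105 bins compared had a median of -0.56. Bins that lost most of their contacts are left out of the 105, so the numbers called in each direction depend on this filter. The 2 bins called lower were the adjoining Tsix bins at 100635001 and 100640001, at -0.81 and -1.38. The higher ones included the bin at 100660001, in both Tsix and Xist, at 1.14. At day 7, 11 of 122 bins were called lower and 9 higher than at day 0 on that scale. Of the 11 called lower, 5 were bins of Tsix or Xist. These genes together cover 12 bins, and all of them except the one at 100625001, with 8 contacts at day 7, were among the 122 compared.

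Next-bin contacts in this part of Tsix followed the rest of the region. Their mean over 5 pairs was 6.81 per 10000 at day 0, 4.41 at day 4 and 4.82 at day 7. Day 4 over day 0 was -0.63 (-0.86 to -0.40), against -0.53 for all next-bin pairs, and its sign turned to 0.10 when scaled to the median same-bin value. The interval for these pairs does not overlap that of the same-bin signal of the same bins. The bins were chosen after the values were seen, so this contrast cannot show whether same-bin signal fell further than next-bin signal here.

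Over Xist (X 100655714 to 100678556, minus strand) the mean same-bin value was 3.06 at day 0, 1.70 at day 4 and 1.88 at day 7, from 233, 137 and 155 contacts. Day 4 over day 0 was -0.85 (-1.17 to -0.53), and relative to all bins -0.17 (-0.49 to 0.15), an interval that includes 0. At the bin of the Xist promoter, 100675001 to 100680000, the values were 3.48, 1.99 and 1.35, with day 4 over day 0 at -0.81 (-1.47 to -0.17) and day 7 over day 0 at -1.36 (-2.11 to -0.66). It is the bin of Xist's start, and Tsix runs across it and ends in the next bin. Inside Xist the bin at 100660001 to 100665000 had 1.63, 2.15 and 1.33 from 15, 24 and 15 contacts. Day 4 over day 0 was 0.40 (-0.59 to 1.44) there, among the 3 highest ratios of the 105 bins compared, and day 7 over day 0 was -0.29 (-1.42 to 0.84). Both intervals include 0.

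Jpx, annotated as Enox (X 100688895 to 100701353, plus strand), was the named gene with more same-bin signal at day 7 relative to all bins. Its mean same-bin value was 2.59 at day 0, 1.96 at day 4 and 2.60 at day 7, from 135, 103 and 142 contacts. The ratio of day 4 over day 0 was -0.40 (-0.77 to -0.02) as a share of the map and 0.34 (-0.04 to 0.71) when scaled to the median same-bin value, and recovered contacts gave -0.31 (-0.68 to 0.06), both with intervals that include 0. Day 7 over day 0 was 0.01 (-0.33 to 0.35), which is 0.43 (0.09 to 0.77) above the change of all bins. Its next-bin mean was 5.59, 4.76 and 5.69, and day 4 over day 0 was -0.23 (-0.52 to 0.06).

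Ftx, annotated as B230206F22Rik (X 100756246 to 100819093, minus strand), tracked the region in its same-bin signal. Its same-bin mean was 3.03, 1.91 and 2.28 at day 0, day 4 and day 7, and day 4 over day 0 was -0.67 (-0.87 to -0.46), with the sign turned to 0.07 under scaling to the median. Its next-bin mean was 5.75, 4.32 and 5.72. Day 7 over day 0 was -0.01 (-0.15 to 0.13) for these, or 0.19 (0.05 to 0.33) above all next-bin pairs.

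Tsx, Cdx4 and Nap1l2, protein-coding genes on the Tsix side, had the highest day 0 values among the named genes. These levels were not adjusted for probes, which numbered 30 over 3 bins for Tsx, 26 over 3 for Cdx4 and 13 over 2 for Nap1l2. There were 39 over 5 bins for Xist, 71 over 12 for Tsix, 29 over 4 for Jpx and 94 over 13 for Ftx. Chic1 had 37 over 9, Rlim 33 over 6 and Zcchc13 4 in 1 bin. Tsx, which lies next to Tsix, had same-bin values of 4.8 at day 0, 2.66 at day 4 and 2.89 at day 7, and next-bin values of 11.4, 6.1 and 7.72. Cdx4, a homeobox gene, went from 4.03 to 2.13 and 2.24 in the same bin and from 11.4 to 6.23 and 7.02 in the next bin. Relative to all next-bin pairs, day 4 over day 0 was -0.37 (-0.63 to -0.11) for Tsx and -0.34 (-0.64 to -0.03) for Cdx4, and the other gene lower by this measure was Rlim, at -0.34 (-0.60 to -0.08). Chic1 had 2.34, 1.36 and 1.77 in the same bin, with day 4 over day 0 at -0.78 (-1.14 to -0.42). Nap1l2, which encodes a nucleosome assembly protein of neurons and covers 2 bins, had 3.96, 2.87 and 3.03, and its ratio of -0.46 (-1.05 to 0.13) did not exclude 0.

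On the Xist side, Rlim had 3.26, 2.12 and 2.55 per 10000 in the same bin, with day 4 over day 0 at -0.62 (-0.97 to -0.27) as a share of the map and 0.11 when scaled to the median. Zcchc13 lies in 1 bin, with 2.81, 1.88 and 1.73 and a ratio of -0.58 (-1.29 to 0.14). In the next bin, 8 of 9 genes were lower at day 4 than at day 0 and 7 of 9 at day 7, and 6 of 9 rose between day 4 and day 7. Scaled to the median same-bin value, the next-bin sign at day 4 turned for 5 named genes, to 0.21 (-0.01 to 0.44) for Xist, 0.16 (0.01 to 0.31) for Tsix, 0.50 (0.21 to 0.79) for Jpx, 0.32 (0.17 to 0.48) for Ftx and 0.07 (-0.17 to 0.30) for Chic1. For Tsix, Jpx and Ftx these intervals exclude 0. This scale removes the same-bin shift of -0.73, whereas all next-bin pairs moved by -0.53, so these signs do not show a rise beyond other next-bin pairs. Relative to all next-bin pairs, day 4 over day 0 was 0.01 (-0.22 to 0.24) for Xist and -0.05 (-0.20 to 0.10) for Tsix. It was 0.12 (-0.03 to 0.27) for Ftx and 0.30 (0.01 to 0.59) for Jpx.

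**Figure D4:**
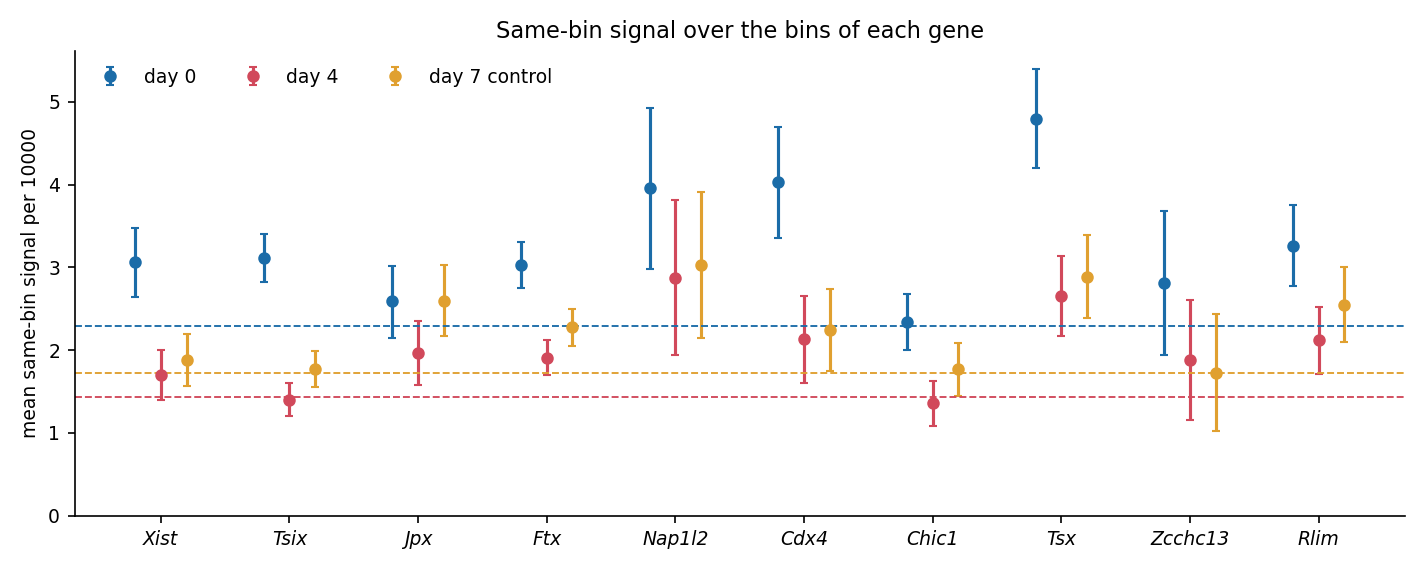
Mean same-bin signal per 10000 of the map over the bins of each named gene at day 0, day 4 and day 7 control, with 95% counting intervals; dashed lines are the means over all bins of the same map. Tsix goes from 3.11 above its day 0 line to 1.40 at its day 4 line, and Jpx is at 2.59 and 2.60 at day 0 and day 7; scaled to the median same-bin value, the sign of day 4 over day 0 turns for 5 genes, Jpx, Ftx, Rlim, Nap1l2 and Zcchc13, at 0.07 to 0.34 with intervals that include 0.

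The loss was larger on the Tsix side of the region, a split at the middle of Xist that was taken after values were seen. Over the 91 bins up to 100670000, day 4 over day 0 was -0.87 (-1.0 to -0.73) for same-bin signal. Over the 119 bins beyond it, the ratio was -0.55 (-0.63 to -0.46). The intervals do not overlap, and for next-bin pairs the ratios were -0.70 and -0.41. Leaving the Tsix bins out, the Tsix side had -0.82 (-0.97 to -0.68). At day 7 against day 0, next-bin signal was -0.35 (-0.43 to -0.27) on the Tsix side and -0.09 (-0.14 to -0.03) on the Xist side.

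The single largest falls in next-bin signal at day 4 were on the Tsix side. The pair 100480001 to 100490000 in 4930519F16Rik went from 7.88 to 2.94 per 10000, a log2 ratio of -1.42 (-2.41 to -0.52). The pair 100530001 to 100540000, beyond Cdx4, went from 6.18 to 2.33 (-1.41, -2.47 to -0.45), and 100460001 to 100470000 from 8.99 to 3.61 (-1.32, -2.02 to -0.66). No rise among the 3 highest same-bin or next-bin ratios of day 4 over day 0 had an interval that excluded 0. Against day 4, the day 7 next-bin signal between 100650001 and 100660000, where Tsix meets the 3' end of Xist, rose from 2.78 to 6.2 (1.16, 0.46 to 1.89).

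Bins over genes held more same-bin signal than bins between genes, but they also held more probes. A bin counted as over a gene where at least 50% of it was covered by an annotated gene and as between genes where none of it was, which gave 91 and 88 bins, with 31 left aside. The median was 2.72 per 10000 over genes against 1.48 between genes at day 0, 1.77 against 0.957 at day 4 and 1.93 against 0.941 at day 7. Probes per bin averaged 5.88 over genes and 3.24 between genes. The mean log2 difference, with 0.25 added to each value, was 1.00 (0.89 to 1.12) at day 0, then 0.67 (0.54 to 0.80) at day 4, then 0.76 (0.63 to 0.88) at day 7.

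With probes per bin in the fit, most of that difference went. Day 0 then had 0.44 (0.32 to 0.57), day 4 had 0.15 (0.01 to 0.28) and day 7 had 0.20 (0.07 to 0.33), and each probe added 0.20 to 0.21. Among bins with 4 to 7 probes, 37 over and 19 between genes, it was -0.06 (-0.22 to 0.09), -0.16 (-0.35 to 0.04) and -0.20. The intervals of day 0 and day 4 include 0, and that of day 7 excludes it. In the next bin the adjusted difference was 0.37 (0.26 to 0.49), 0.25 (0.12 to 0.38) and 0.15 (0.03 to 0.27). With 4 to 7 probes it was 0.24, 0.11 (-0.03 to 0.25) and -0.02 (-0.13 to 0.10). In the allelic maps the next-bin sign was mixed, with 0.07 (-0.13 to 0.27) in control cas, -0.11 (-0.32 to 0.09) in control mus, 0.12 (-0.08 to 0.32) in depleted cas and -0.30 (-0.51 to -0.10) in depleted mus. At day 7 the sign of the same-bin difference thus depended on how probe number was handled. At day 0 and day 4 this held for whether the interval excluded 0. At day 4 the interval also included 0 with balanced bin totals, at 0.04 (-0.10 to 0.19). These intervals cover counting error and leave out the spread between bins. A value of 0 enters the fit without counting error, so they are too narrow for counting error as well.

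**Figure D5:**
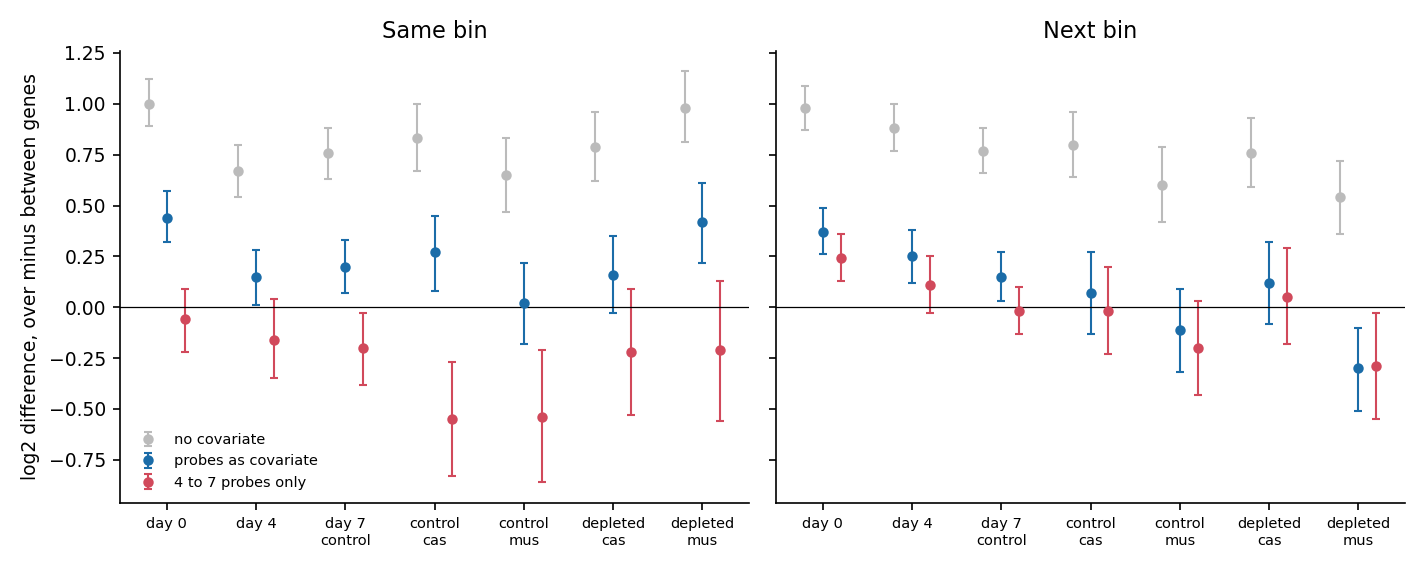
Log2 difference between bins over genes and bins between genes in each map, same bin (left) and next bin (right), with 95% counting intervals; grey, no covariate, blue, probes per bin as covariate, red, bins with 4 to 7 probes only. In the same bin the grey points lie at 0.65 to 1.00, the blue ones at 0.02 to 0.44 and the red ones at or below -0.06.

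Both classes of bins had less signal at day 4 than at day 0. From day 0 to day 4 same-bin signal was -0.75 (-0.84 to -0.65) over genes and -0.60 (-0.76 to -0.44) between genes, and the difference of -0.15 (-0.33 to 0.04) did not exclude 0. For day 7 over day 0 next-bin signal was -0.27 (-0.33 to -0.21) over genes and -0.02 (-0.14 to 0.09) between genes, a difference of -0.25 (-0.38 to -0.12). This was the only day comparison among the 6 in which the classes differed. Each class has the same probes in both maps, but next-bin pairs over genes had a mean of 12 probes and those between genes 5.6. Whether the change of a pair followed its probe number was not tested.

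At day 7 the mus allele had a somewhat larger share of short contacts than the cas allele in both conditions. In control cells, same-bin signal was 3.2% (3.01 to 3.39) on cas and 3.53% (3.29 to 3.76) on mus, and next-bin signal 8.85% (8.52 to 9.18) and 9.88% (9.47 to 10.3). In depleted cells, same-bin signal was 3.3% (3.08 to 3.51) on cas and 3.78% (3.52 to 4.04) on mus, and next-bin signal 9.18% (8.81 to 9.55) and 10.6% (10.1 to 11). The log2 ratio of mus over cas was 0.14 (0.01 to 0.27) in control and 0.20 (0.06 to 0.33) in depleted cells for the same bin, and 0.16 (0.08 to 0.24) and 0.20 (0.12 to 0.29) for the next bin. These 2 comparisons come from separate libraries. The same-bin intervals no longer excluded 0 with balanced bin totals, at 0.17 (-0.03 to 0.38) in control and 0.15 (-0.06 to 0.35) in depleted cells, or with signal at 100 kb or less as the total, at 0.06 (-0.07 to 0.19) and 0.09 (-0.04 to 0.23). Without the 12 Tsix bins the control same-bin ratio was 0.10 (-0.04 to 0.24) and no longer excluded 0.

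The difference between alleles was not limited to the shortest separations. In control cells mus over cas was 0.10 (0.04 to 0.16) at 10 to 20 kb and 0.12 (0.06 to 0.18) at 25 to 50 kb, -0.18 (-0.22 to -0.15) at 105 to 495 kb and 0.29 (0.19 to 0.40) at 500 kb or more. Against signal at 100 kb or less alone, the next-bin ratios were 0.08 (0.00 to 0.15) in control and 0.09 (0.01 to 0.18) in depleted cells, and the control interval reached 0. Read assignment to an allele needs sequence variants near the ends of the reads, and a part of variant density in the allelic values was not tested.

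Few bins of the allelic maps held enough contacts to be compared one by one. The median was 3 to 4 same-bin contacts and 10 to 12 next-bin contacts per bin or pair, and 38 to 48 diagonal values were 0. In control cells 7 of 36 same-bin values (19.4%) were called higher on mus and 0 (0%) lower, and 13 of 100 next-bin values (13%) higher and 6 (6%) lower. In depleted cells 11 of 32 (34.4%) were called higher and 2 (6.25%) lower in the same bin, and 18 of 96 (18.8%) higher and 3 (3.12%) lower in the next bin. Pairs at 10 kb or more were called higher on mus at 19.8% in control and 19.9% in depleted cells and lower at 2.2% and 1.99%. The mus maps were shallower, with 28859 and 24788.5 contacts against 38780.5 and 33099.5 for cas, so pairs low on mus reach the minimum of 10 contacts less easily than pairs low on cas.

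A single bin was the highest ratio of mus over cas in both conditions. The bin at 101100001 to 101105000, with 9 probes and no annotated gene, had 4.66 per 10000 on mus and 1.75 on cas in control cells, and 5.4 and 2.08 in depleted cells. The log2 ratios were 1.41 (0.22 to 2.69) and 1.38 (0.17 to 2.66), from 18 against 10 and 17 against 10 contacts. Each interval is taken for 1 bin chosen as the highest of 36 and of 32.

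Among the named genes, Tsix had more same-bin signal on mus in control cells. It was 2.10 per 10000 on mus and 1.23 on cas, from 91 and 65 contacts, a log2 ratio of 0.78 (0.28 to 1.27). In depleted cells the values were 1.84 and 1.38, a ratio of 0.41 (-0.11 to 0.94), and the difference between the conditions was not tested. The 6 bins of Tsix outside Xist had 2.28 on mus and 1.23 on cas in control cells, from only 37 and 24 contacts (0.90, 0.15 to 1.65, or 0.72, -0.03 to 1.47, when scaled to the median same-bin value), and 2 and 1.66 in depleted cells (0.26, -0.50 to 1.03). Rlim was lower on mus in control cells, with 1.69 against 2.83 (-0.75, -1.49 to -0.00), and had 2.14 against 1.94 in depleted cells (0.14, -0.65 to 0.93).

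The other named genes did not differ between alleles in the same bin at this depth. Of 8 genes with at least 10 contacts on both alleles, 1 was higher on mus and 1 lower in control cells and 0 in either direction in depleted cells. In the next bin, Cdx4 had 5.10 on mus and 9.31 on cas in control cells (-0.87, -1.5 to -0.24) and 7.02 and 9.19 in depleted cells (-0.39, -1.0 to 0.22). Xist had 1.76 on mus and 1.15 on cas in the same bin in control cells, from 40 and 31 contacts, and the ratio of 0.62 (-0.12 to 1.35) included 0.

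The Jpx LNA was followed by little change in short contacts. On cas, depleted over control was 0.04 (-0.08 to 0.17) in the same bin and 0.05 (-0.03 to 0.13) in the next bin. On mus it was 0.10 (-0.04 to 0.24) and 0.09 (0.01 to 0.18), with next-bin shares of 9.88% in control and 10.6% in depleted cells. That next-bin interval included 0 with balanced bin totals, at 0.09 (-0.04 to 0.23), and with signal at 100 kb or less as the total, at 0.06 (-0.02 to 0.14). The effect on mus minus that on cas was 0.06 (-0.13 to 0.24) in the same bin and 0.04 (-0.08 to 0.16) in the next bin, both of which include 0. At 105 to 495 kb, depleted over control was -0.07 (-0.11 to -0.03) on mus and -0.00 (-0.04 to 0.03) on cas, and their difference was -0.06 (-0.11 to -0.01).

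Bin by bin the LNA comparison gave few calls. On cas, 1 of 41 same-bin values (2.44%) was called higher and 4 (9.76%) lower, and 9 of 104 next-bin values (8.65%) higher and 9 lower, against 10.1% higher and 4.78% lower among pairs at 10 kb or more. On mus, 2 of 31 same-bin values (6.45%) were called in each direction, and 4 of 93 next-bin values (4.3%) higher and 1 (1.08%) lower, against 9.46% higher and 5.86% lower at 10 kb or more. The highest next-bin ratio on cas was in Ftx, at 100770001 to 100780000, with 6.92 in depleted and 2.45 in control cells (1.5, 0.38 to 2.73). The same pair was the highest of control mus over control cas, with 6.27 against 2.45 (1.35, 0.21 to 2.60), and both comparisons use the low control cas value, which rests on 10 contacts. The pair at 101175001 to 101185000, at the Rlim promoter, was alike, with 3.36 in control cas and 8.23 to 8.4 in control mus and depleted cas.

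No named gene changed with the Jpx LNA in the same bin, 0 of 9 on cas and 0 of 8 on mus. Over Jpx itself the same-bin mean was 2 in depleted and 2.22 in control cells on cas (-0.15, -0.76 to 0.45) and 2.33 and 2.48 on mus (-0.09, -0.70 to 0.52). Over Xist it was 1.11 and 1.15 on cas (-0.05, -0.83 to 0.72) and 1.57 and 1.76 on mus (-0.17, -0.90 to 0.56). Intervals of this width do not show that the values are alike. Bins over genes rose on mus by 0.21 (0.02 to 0.41) and bins between genes had -0.10 (-0.36 to 0.17), with a difference of 0.31 (-0.02 to 0.64) that includes 0.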

How the data were processed

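Each map, as the authors deposited it, is a symmetric table of signal between 5 kb bins (mm9), and the probes are a list of positions, per the file headers. Per the submitters' processing notes, the tools were Juicer 1.5.3, HOMER 4.8, Novoalign 3.00.02 and cutadapt 1.2.1, whose roles are not stated. Filters, allele assignment and value correction were not given in the sources used here. Within a tolerance of 0.01 contacts, at least 99.99% of values above 0 between bins equalled a whole number of contacts over a product of 2 bin factors, with slope 0.484 to 0.492 of the log factors on log bin totals, so coverage was evened out in part. Map totals of 24788.5 to 96793 contacts set the counting intervals: exact Poisson for a bin, conditional binomial for a ratio of single bins, delta method otherwise. Values of 0 add no counting error to these intervals. Each bin pair counted once, and values are per 10000 of the map's signal. Calls needed 1.5-fold and 10 contacts in both maps. Genes were those of GENCODE for mm9. Named were 10 genes of the region and, per map or comparison, the 3 highest and 3 lowest values, of which those with an interest for the region are described and 1 locus is not reported here. Members and lists were chosen with earlier results of these data known. Alternatives changed the total, signal, bins, covariate, gene definition, scaling and call rule, and 2 (pseudocount 1, values above 0 only) were added after the values were seen. Calculations used Python 3.11.15, numpy 2.4.6, scipy 1.17.1 and matplotlib 3.10.9 and were tested on simulated data.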

Additional observations from a re-analysis of the deposited data

How the results depend on the processing

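Of 96 share ratios under 6 alternatives, 88 stayed within their counting error and none whose interval excluded 0 changed sign. The same-bin difference of mus over cas included 0 under 2 of the 6 in each condition, as did the next-bin difference of depleted over control mus, with balanced totals and with signal at 100 kb or less as the total. The next-bin interval of mus over cas in control cells reached 0, at 0.00 to 0.15, with signal at 100 kb or less as the total. With signal at 100 kb or less as the total, the same-bin ratio was -0.53 for day 4 over day 0 and -0.33 for day 7 over day 0, and the next-bin ratio -0.38, -0.11, 0.27 for day 7 over day 4, 0.08 for mus over cas in control and 0.09 in depleted cells. Balancing bin totals gave -0.60 for the same bin at day 4 over day 0. The cause of these shifts was not tested.

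The difference between bins over and between genes depended most on probes. In map order (day 0, day 4, day 7, then cas and mus of control, then cas and mus of depleted cells), the same-bin difference without a covariate was 1.0, 0.67, 0.76, 0.83, 0.65, 0.79 and 0.98, and with MboI sites as covariate 0.97, 0.66, 0.73, 0.83, 0.63, 0.81 and 0.99. With 4 to 7 probes only it was -0.06, -0.16, -0.20, -0.55, -0.54, -0.22 and -0.21. A pseudocount of 1 gave 0.24 at day 0, 0.07 in control cas and 0.20 in depleted mus. Values above 0 only gave 0.15 at day 0, -0.13 and -0.27 for cas and mus of control cells and -0.21 and 0.08 for cas and mus of depleted cells, and recovered contacts 0.33 at day 4. For the next bin, in the same order, the difference without a covariate was 0.98, 0.88, 0.77, 0.80, 0.60, 0.76 and 0.54, and with MboI sites 0.92, 0.80, 0.64, 0.67, 0.49, 0.67 and 0.39, where the main value of depleted mus was -0.30. For day 0, day 4 and day 7 it was 0.24, 0.11 and -0.02 with 4 to 7 probes, 0.57, 0.41 and 0.31 with recovered contacts, and 0.23, 0.07 and -0.00 with values above 0 only. Values above 0 only gave -0.10 in depleted mus, and balanced totals 0.23 at day 0 and 0.01 at day 7. Other values of this difference, 84 in number, moved by less than their counting error, but some of their intervals came to include 0. For the same bin at day 4 they included 0.12 (-0.00 to 0.24) with protein-coding and long noncoding RNA genes only, and 0.04 (-0.10 to 0.19) with balanced totals. For the next bin at day 7 they included 0.10 (-0.01 to 0.21) with any overlap with a gene. In each of these 2 cases the interval excluded 0 under 4 of 10 alternatives.

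Counts of calls, same bin and next bin together, followed the thresholds by construction. At 2-fold or more they were 34 for day 4 over day 0, 14 for day 7 over day 0, 9 for day 7 over day 4, 5 and 3 for mus over cas in control and depleted cells, and 5 on cas and 0 on mus for depleted over control, against 121, 62, 49, 26, 34, 23 and 9 at 1.5-fold. With at least 30 contacts they were 51, 26, 15, 2, 2, 1 and 0, over 129, 154, 128, 23, 18, 22 and 21 pairs. Scaling to the median same-bin value, which removed a shift of -0.73 for day 4 over day 0, -0.37 for day 7 over day 0 and 0.36 for day 7 over day 4, left 49 calls for day 4 over day 0 and 31 for day 7 over day 4. Of the same-bin calls for day 4 over day 0, 15 were then higher and 2 lower, against 1 and 48, and of the next-bin calls 30 and 2, against 1 and 71. Before scaling, the values that met the contact minimum had medians of -0.56 in the same bin and -0.52 in the next bin. Both lie above the -0.73 removed, which by itself moves calls towards higher.

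That scaling shifts all ratios of a comparison by 1 constant, so small ratios change sign by construction. Of 63 day ratios of the genes and of Tsix outside Xist, 30 changed sign, 18 whose interval had excluded 0 and 12 whose interval had included it, and 4 of the 30 excluded 0 after scaling. Among the 18, those for day 4 over day 0 were Jpx 0.34, Ftx 0.07 and Rlim 0.11 in the same bin, and Xist 0.21, Tsix 0.16, Ftx 0.32, Chic1 0.07 and Tsix outside Xist 0.10 in the next bin. For day 7 over day 0 they were Rlim 0.01 in the same bin and Xist 0.09, Tsix 0.04 and Chic1 0.01 in the next bin. For day 7 over day 4 they were Tsix -0.03 and Ftx -0.11 in the same bin and Xist -0.12, Tsix -0.12, Chic1 -0.06 and Tsx -0.03 in the next bin. The same-bin fall of Tsix from day 0 to day 4 kept its direction under all 3 alternatives, at -0.41, -1.03 and -1.24 when scaled to the median, as recovered contacts and balanced, and that of Tsix outside Xist at -0.78, -1.54 and -1.50.

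No paired analysis was possible because the replicate numbers of the day 7 libraries are combined in the allelic maps. Depth limits single bins: a median of 3 to 4 same-bin contacts in the allelic maps shows only large differences. Low bins left out in that alternative numbered 3 in the maps of all reads and 4 in the allelic maps.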
